A study of Mus musculus with 6 samples.

Results

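The 10 genes described here encode the folding machinery of the endoplasmic reticulum and the transcription factor Xbp1. The chaperones are Calr, Canx, Hspa5, Hsp90b1, Pdia3, Pdia4, Pdia6, Dnajb9 and Sdf2l1. The genes were taken by name, and all 10 were found among the 28987 genes of the deposited table.

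RNA-seq libraries were made from the bone marrow of C57BL/6 mice whose mutant clone carried CBL and RUNX1 mutations, a mouse model of myelodysplastic syndrome, treated with vehicle or Mdivi-1, a drug-like compound in use to block mitochondrial fission by Drp1, the product of Dnm1l. Stem and progenitor cells of the marrow (HSCPs) were enriched on CD117, the product of Kit, and the mutant clone was then sorted; they gave 1 vehicle and 1 Mdivi-1 library. Mature mutant cells sorted on Ly6G, a surface protein of neutrophils, gave 2 vehicle and 2 Mdivi-1 libraries. The vehicle libraries carry both mutations as well, so no group here is wild type. The alleles and how they were introduced, the dose and duration of Mdivi-1 and the age of the mice are not stated in the labels. Marrow was taken from individual mice, but which mouse or mice stand behind each library is not stated; the p-values therefore cover only the spread among these libraries, which may be technical.

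Secreted and membrane proteins enter the endoplasmic reticulum unfolded. Hspa5 (BiP) binds their exposed hydrophobic stretches with the help of J-domain partners such as Dnajb9, the lectins calnexin (Canx) and calreticulin (Calr) hold glycoproteins while Pdia3 exchanges their disulfide bonds, and other protein disulfide isomerases act on further substrates. When unfolded protein accumulates, the sensor Ire1, encoded by Ern1, removes a short intron from Xbp1 mRNA, and the protein made from the spliced form activates chaperone and degradation genes; the sensor Atf6 activates many of the same chaperones. In the marrow, Xbp1 is best known from plasma cells and eosinophils, and granulocytes make most of their granule proteins on the endoplasmic reticulum before they mature.

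Values are in TPM, a length-corrected share of a library's transcripts, so levels of different genes can be compared within a library. TPM keeps no record of sequencing depth, which is unknown here. The number of genes at 1 TPM or more ranged from 11456 to 11930. Kit was at 72.2 TPM in vehicle HSCPs, at 64.9 TPM in Mdivi-1 HSCPs and between 8.73 and 14.1 TPM in Ly6G+ cells. Ly6g was between 642 and 839.8 TPM in Ly6G+ cells, and at 187 and 90.1 TPM in the vehicle and Mdivi-1 HSCP libraries, so the HSCP fraction also held neutrophil transcripts. The paired transcripts S100a8 and S100a9 took between 19.7 and 20.9% of all TPM in Ly6G+ libraries and 7.70 and 7.06% in HSCP libraries, which lowers the TPM of every other gene in Ly6G+ cells. Dnm1l, the gene of the protein at which Mdivi-1 is aimed, was between 23.0 and 35.5 TPM in all 6 libraries; Mdivi-1 acts on protein, so its mRNA checks no label. In bulk samples of this kind, fewer cells of a type and less RNA per cell cannot be told apart.

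Chaperone genes of this kind are known for the endoplasmic reticulum stress response element (ERSE), at which Atf6 and the spliced Xbp1 protein act with the CCAAT-box factor NF-Y. Its letters, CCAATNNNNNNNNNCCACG, were searched on both strands in the 250 bases before each RefSeq start on GRCm38.p6. The 3 windows below belong to Hspa5, Hsp90b1 and Calr, the members whose Mdivi-1 comparison in Ly6G+ cells passed the test further down. They run 5′ to 3′ on the strand of the gene and end at the base before its start. Capitals mark each match, which reads CGTGG to ATTGG where the element lies on the other strand; the run of 7 capitals in the Hspa5 window, TGACGTG, is the core of the unfolded protein response element.
Hspa5 promoter, chr2:34771840-34772089, plus strand: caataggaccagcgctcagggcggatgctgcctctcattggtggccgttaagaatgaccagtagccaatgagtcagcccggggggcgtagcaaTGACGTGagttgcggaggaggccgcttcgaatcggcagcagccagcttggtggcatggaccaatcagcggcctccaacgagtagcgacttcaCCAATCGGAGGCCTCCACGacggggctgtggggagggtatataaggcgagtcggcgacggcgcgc
Hsp90b1 promoter, chr10:86705445-86705694, minus strand: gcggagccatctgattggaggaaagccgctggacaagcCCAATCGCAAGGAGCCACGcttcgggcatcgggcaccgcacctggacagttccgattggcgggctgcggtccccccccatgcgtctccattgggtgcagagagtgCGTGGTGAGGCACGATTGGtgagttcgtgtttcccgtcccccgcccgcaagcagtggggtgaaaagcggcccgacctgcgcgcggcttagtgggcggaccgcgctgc
Calr promoter, chr8:84846932-84847181, minus strand: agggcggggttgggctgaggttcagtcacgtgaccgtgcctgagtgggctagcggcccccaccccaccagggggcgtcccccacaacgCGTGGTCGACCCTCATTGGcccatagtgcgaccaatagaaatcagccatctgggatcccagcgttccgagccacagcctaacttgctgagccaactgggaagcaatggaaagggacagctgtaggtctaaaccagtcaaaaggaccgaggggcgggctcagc

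The matches themselves, read in the direction of the element, differ only in the 9 unspecified bases between the CCAAT box and CCACG. Capitals here cover the whole match, since every letter of it is set against the pattern.
Hspa5, 65 to 47 bases before the start, chr2:34772025-34772043: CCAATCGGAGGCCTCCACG
Hsp90b1, 107 to 89 bases before the start, other strand, chr10:86705533-86705551: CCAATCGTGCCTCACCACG
Hsp90b1, 212 to 194 bases before the start, chr10:86705638-86705656: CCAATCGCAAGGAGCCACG
Calr, 162 to 144 bases before the start, other strand, chr8:84847075-84847093: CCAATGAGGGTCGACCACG
Pdia6, 98 to 80 bases before the start, chr12:17266491-17266509: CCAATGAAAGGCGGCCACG
Canx, 145 to 127 bases before the start, chr11:50325800-50325818: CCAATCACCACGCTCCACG

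Hsp90b1 held 2 matches, and Hspa5, Calr, Pdia6 and Canx held 1 each, so 5 of the 10 members carried the full element. It occurred in 37 of 32851 RefSeq promoter windows of the same length, a share of 0.113%. Since chaperone genes of this kind are known for the element, the count among the members is no independent result. Only exact matches to the letters were counted. The related element ERSE-II, ATTGGNCCACG, was in 10 windows (0.0304%) and in no member. The core TGACGTG was in 542 windows (1.65%) and, among the members, only in Hspa5, 157 to 151 bases before the start at chr2:34771933-34771939. A match describes the letters and is not a measured binding site. The windows of Pdia3, Pdia4, Xbp1, Dnajb9 and Sdf2l1 held none of the 3 patterns, and those of Pdia4 and Xbp1 end upstream of the gene limits in the GENCODE annotation. The windows of Hspa5, Hsp90b1, Pdia3, Pdia6 and Calr reach into those limits, and that of Dnajb9 lies within them. The ERSE match of Hspa5 thus lies before its RefSeq start but inside its GENCODE limits.

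All 10 members were abundant, protein-coding genes, and all 10 passed the filter of 1 TPM in at least 2 libraries. Together they took 0.321% of TPM in vehicle HSCPs, 0.366% in Mdivi-1 HSCPs, 0.133 and 0.137% in vehicle Ly6G+ cells and 0.159% in both Mdivi-1 Ly6G+ libraries. In HSCPs the level per length was highest for Calr, followed by Hspa5, Hsp90b1 and Pdia3, Canx and Pdia6, Xbp1 and Sdf2l1, Pdia4 and lastly Dnajb9. Hsp90b1 and Pdia3, Canx and Pdia6, and Xbp1 and Sdf2l1 were the neighbours whose ranges over the 2 HSCP libraries overlapped. In Ly6G+ cells the order was Hsp90b1, Calr and Hspa5, whose neighbouring ranges overlapped, then Pdia3, Xbp1 and Canx (ranges overlapping), Pdia6, Sdf2l1, and last Dnajb9 and Pdia4 (ranges overlapping). Xbp1 thus stood below Pdia6 in HSCPs and above it in Ly6G+ cells, and Dnajb9 lay far below Pdia4 in HSCPs but at its level in Ly6G+ cells.

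**Figure D1:**
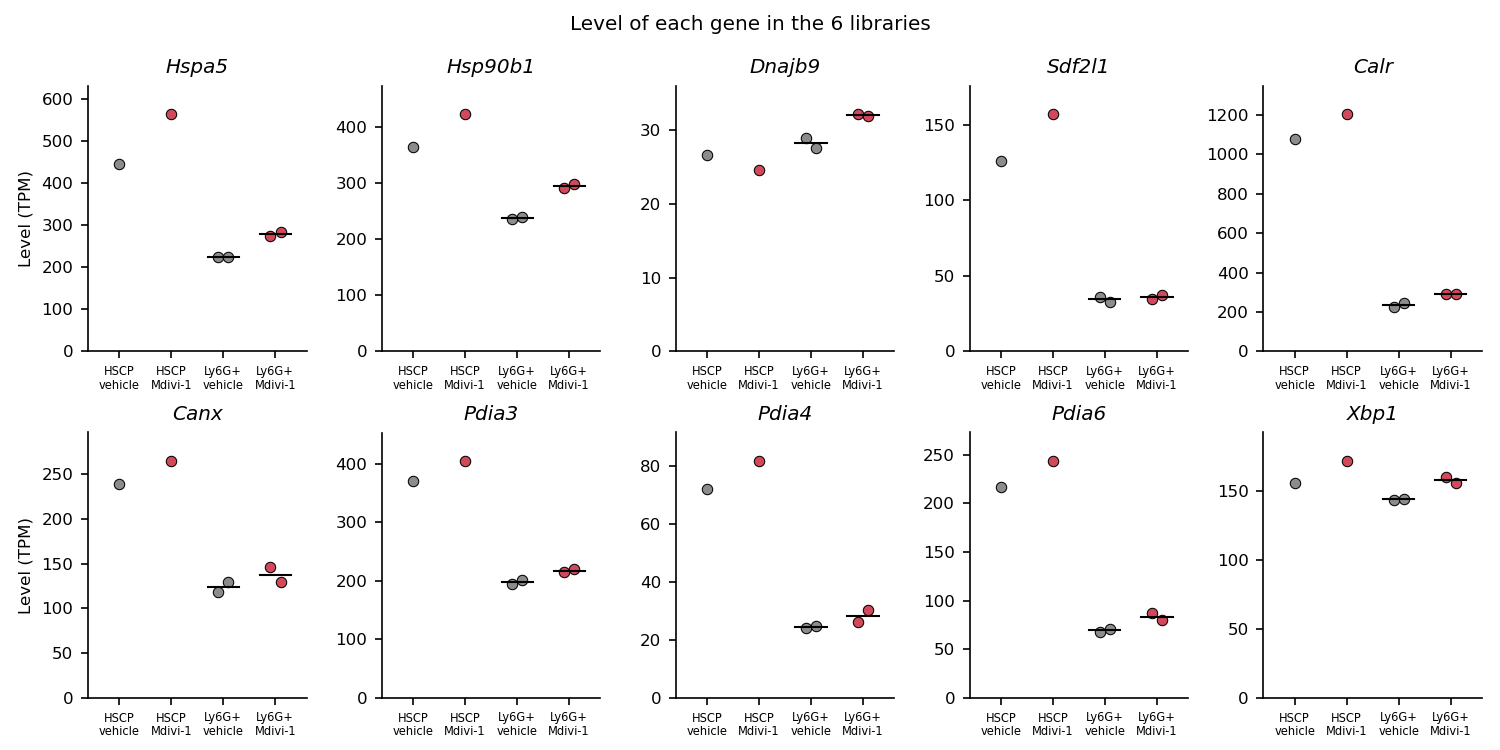
Level of each of the 10 genes, 1 panel per gene with its own linear TPM axis from 0, with 1 point per library (grey for vehicle, red for Mdivi-1) and a bar at the mean of each pair of Ly6G+ libraries. Calr spans the widest range, from 225 TPM in a vehicle Ly6G+ library to 1202 TPM in Mdivi-1 HSCPs, while the 6 values of Xbp1 lie between 144 and 172 TPM.

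The first comparison set the 4 Ly6G+ libraries against the 2 HSCP libraries, with treatment as a covariate. Most of the chaperones were lower in the mature cells, Calr by 4.34-fold and Sdf2l1 by 3.91-fold, while Xbp1 differed by 1.08-fold and Dnajb9 was 1.17-fold higher. By the adjusted p of limma, 8 of the 10 members were lower in Ly6G+ cells, 1 was higher and 1 did not pass. Of all 12338 genes tested, 50.3% were lower and 22.2% higher by the same rule, so a lower value in Ly6G+ cells is itself common. The members' median log2 difference was -0.97 and that of all genes -0.35. The 8 lower members had every Ly6G+ library below both HSCP libraries, which 52.5% of all genes shared. The sorted populations differ in cell type by design: 8 progenitor markers summed to 14520 and 15513 TPM in HSCPs and to between 1886 and 2000 TPM in Ly6G+ cells, and 8 neutrophil markers to 95388 and 86278 TPM against 253153 to 264205 TPM. Other lists differed too. Eosinophil markers, 6 in number and mostly Prg2, summed to 679 and 379.7 TPM against 64.7 to 74.0 TPM. Dendritic cell markers summed to 1136.5 and 714 TPM against 331 to 630 TPM. Plasma cell markers, mostly Igkc, went the other way, at 240 and 370 TPM against 781 to 1627 TPM. The B cell, megakaryocyte, and mast cell and basophil sums overlapped between the populations. The part of each cell type in the differences that follow was not tested.

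Hspa5, the central chaperone of the compartment (chromosome 2, 34771970 to 34777547, mm10), was at 446 TPM in vehicle HSCPs and 564 TPM in Mdivi-1 HSCPs. In Ly6G+ cells it was at 225 and 224 TPM with vehicle and 275 and 284 TPM with Mdivi-1. Every Ly6G+ library lay below both HSCP libraries, and the log2 difference was -0.999 (95% interval -1.12 to -0.88; limma, adjusted p = 1.51e-05). Hsp90b1 (Grp94), the Hsp90 of the compartment (chromosome 10, 86690209 to 86705509), was at 364 and 422 TPM in HSCPs, at 236 and 239 TPM in vehicle Ly6G+ cells and at 290.3 and 298 TPM in Mdivi-1 Ly6G+ cells. The groups again did not overlap, but the difference was the smallest of the 8, at -0.57 (adjusted p = 0.000138 in limma). The ratio of Hspa5 to Hsp90b1 within a library was 1.23 and 1.34 in HSCPs and between 0.939 and 0.955 in Ly6G+ cells, so the order of these chaperones was reversed between the populations. Only 87.7% of the 31-base words of Hsp90b1 transcripts occur in no other annotated gene, and the others are shared with 1810014B01Rik, Gm25745 and Gm15344.

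Dnajb9 and Sdf2l1, which work with Hspa5, differed in opposite directions. Dnajb9 (ERdj4; chromosome 12, 44205559 to 44210326), a J-domain protein that the spliced Xbp1 protein induces, was at 26.6 and 24.5 TPM in HSCPs and at 28.9, 27.6, 32.1 and 31.9 TPM in Ly6G+ cells, all above the HSCP libraries, as for 23.5% of all genes. Its log2 difference was 0.23 (95% interval 0.02 to 0.43; limma, adjusted p = 0.0492). Sdf2l1 (chromosome 16, 17130138 to 17132383), a partner of J-domain proteins in the same compartment, was at 126 and 157 TPM in HSCPs and between 32.9 and 37.0 TPM in the 4 Ly6G+ libraries, a log2 difference of -1.97 (adjusted p = 9.93e-06 in limma). The ratio of Hspa5 to Dnajb9 within a library, which no scaling between libraries can alter, was 16.8 and 23.0 in HSCPs and between 7.79 and 8.91 in Ly6G+ cells. The call for Dnajb9 was lost when any of 4 libraries was left out: without the Mdivi-1 HSCP library the difference was 0.08 (adjusted p = 0.407), without vehicle Ly6G+ library 1 adjusted p was 0.0902, and without Mdivi-1 Ly6G+ libraries 1 and 2 it was 0.12 and 0.106. It was also lost with no filter on low values (adjusted p = 0.0829) and with a constant prior (0.0711), and 89.2% of its 31-base words are its own, the rest being shared mainly with Gm6568.

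Of the glycoprotein-holding lectins, Calr (chromosome 8, 84841850 to 84846934) was at 1079.6 and 1202 TPM in HSCPs, at 225 and 244 TPM in vehicle Ly6G+ cells and at 291 and 294 TPM in Mdivi-1 Ly6G+ cells. Its log2 difference of -2.12 (95% interval -2.27 to -1.96; limma, adjusted p = 6.92e-06) was the largest in size among the members. Calr mRNA was 2.42 and 2.13 times that of Hspa5 in HSCPs and between 0.997 and 1.09 times in Ly6G+ cells. The membrane-bound relative Canx (chromosome 11, 50293961 to 50325673) was at 239 and 265 TPM in HSCPs and at 118, 129.8, 146 and 129 TPM in Ly6G+ cells, a log2 difference of -0.94 (adjusted p = 6.31e-05 in limma). Their oxidoreductase partner Pdia3 (ERp57; chromosome 2, 121413775 to 121438687) was at 369.9 and 405 TPM in HSCPs and between 195 and 219.6 TPM in Ly6G+ cells, a log2 difference of -0.90 (limma, adjusted p = 2.16e-05). Canx and Pdia3 thus differed by about the same amount, 1.92-fold and 1.86-fold, and Calr by more.

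The other disulfide isomerases lay between those values. Pdia4 (ERp72; chromosome 6, 47796141 to 47813430) was at 72.0 and 81.6 TPM in HSCPs and at 24.2, 24.8, 26.1 and 30.4 TPM in Ly6G+ cells, 2.85-fold lower (log2 -1.51; limma, adjusted p = 1.59e-05). Pdia6 (P5; chromosome 12, 17266545 to 17284770), an isomerase that works beside Hspa5, was at 217 and 244 TPM in HSCPs and at 68.3, 71.0, 86.8 and 79.9 TPM in Ly6G+ cells, 2.99-fold lower (log2 -1.58; limma, adjusted p = 8.5e-06). No Ly6G+ library reached an HSCP library for either gene. Exons of Atp6v1c2 overlap Pdia6 and exons of Catsper2 overlap Pdia3 on the opposite strand. The same holds for 1810014B01Rik with Hsp90b1 and Mir5627 with Dnajb9. The labels do not say whether reads were assigned by strand.

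Xbp1 (chromosome 11, 5520659 to 5525893) was at 156 and 172 TPM in HSCPs, at 144 and 145 TPM in vehicle Ly6G+ cells and at 160.3 and 156 TPM in Mdivi-1 Ly6G+ cells. The groups overlapped, and the log2 difference of -0.12 did not pass (95% interval -0.24 to 0.0090; limma, adjusted p = 0.0835). The ratio of Hspa5 to Xbp1 was 2.86 and 3.27 in HSCPs and between 1.55 and 1.82 in Ly6G+ cells. TPM per gene adds the unspliced and spliced forms of Xbp1, so the share that Ire1 had spliced was not measured.

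How libraries are put on one scale matters in this comparison, since a large share of each Ly6G+ library is S100a8 and S100a9. Median-of-ratios scaling moved the median of all genes from -0.35 to -0.02 and the share of calls that were higher in Ly6G+ cells from 30.6% to 49.5%. On that scale 34.3% of genes were lower and 33.6% higher, and the 8 lower members stayed lower, from -1.74 for Calr, -1.59 for Sdf2l1, -1.21 for Pdia6 and -1.14 for Pdia4 to -0.62 for Hspa5, -0.57 for Canx, -0.52 for Pdia3 and -0.19 for Hsp90b1 (adjusted p = 0.0389 in limma for Hsp90b1). Xbp1 turned to the other direction on that scale, 0.26 higher in Ly6G+ cells (limma, adjusted p = 0.00528), beside Dnajb9 at 0.59 (adjusted p = 0.00227). Upper-quartile scaling gave 0.20 for Xbp1 (adjusted p = 0.014 in limma), and rescaling without S100a8 and S100a9 gave 0.08 (adjusted p = 0.195). The direction for Xbp1 therefore depended on the scaling, and those for Dnajb9 and the 8 lower members did not under the 3 scalings run.

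**Figure D2:**
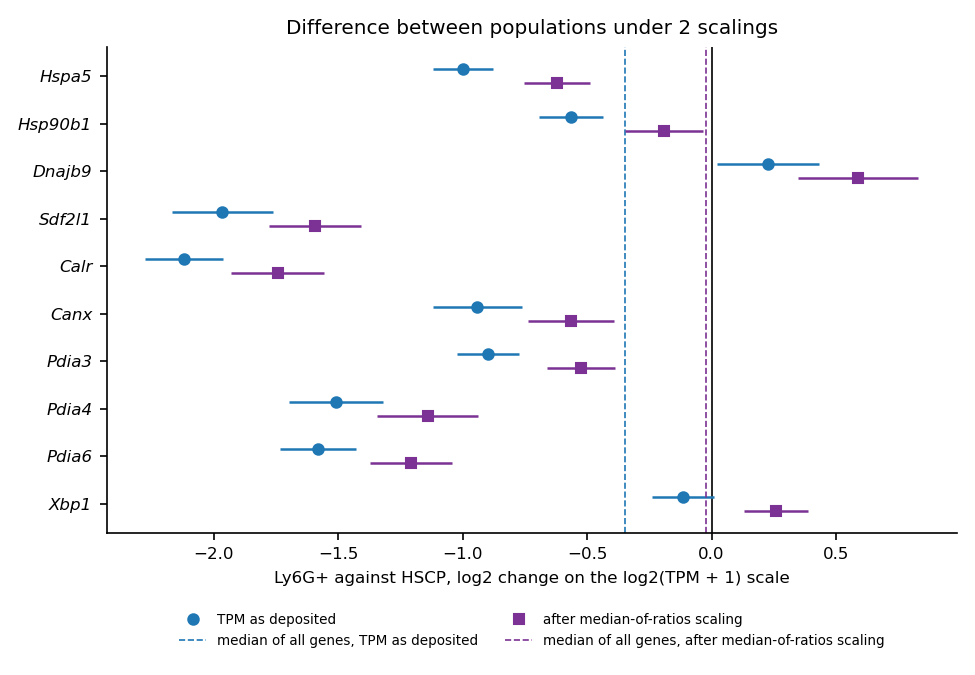
Log2 difference between Ly6G+ and HSCP libraries for each of the 10 genes, on log2(TPM + 1), with 95% intervals from limma, and the same differences after median-of-ratios scaling. Dashed lines mark the median of all genes on each scale (-0.35 and -0.02), and points left of 0 are lower in Ly6G+ cells. Calr and Sdf2l1 lie farthest to the left, at -2.12 and -1.97 on the TPM scale, and Xbp1 crosses 0 between the scales, from -0.12 to 0.26.

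The second comparison asked what Mdivi-1 did to these genes in Ly6G+ cells, with 2 libraries per arm. Calr, Hspa5 and Hsp90b1 rose, each by about the same amount, 1.25-fold, 1.24-fold and 1.24-fold. All 10 members had a higher mean with Mdivi-1, with log2 changes between 0.06 and 0.32, but the other 7 did not pass. Of 11775 genes tested, 2.46% were called higher, 4.24% lower and 6.70% in either direction, and 40.7% had a log2 change above 0. The members' median log2 change was 0.18 and that of all genes -0.05. At an unadjusted p under 0.05, 7 members were higher and none was lower, beside 1014 higher and 2012 lower of all 11775 genes tested. For 8 members both Mdivi-1 libraries lay above both vehicle libraries, which was so for 21.0% of all genes tested, and Canx and Sdf2l1 overlapped.

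Hspa5 was at 225 and 224 TPM with vehicle and at 275 and 284 TPM with Mdivi-1, means of 225 ± 0.823 and 279 ± 6.64 TPM (SD, n = 2 each). The lower Mdivi-1 library lay well above both vehicle libraries, and the log2 change was 0.31 (SE 0.0494; 95% interval 0.19 to 0.44; limma, adjusted p = 0.0344). Hsp90b1 was at 236 and 239 TPM with vehicle and at 290.3 and 298 TPM with Mdivi-1, means of 237 ± 2.02 and 294 ± 5.52 TPM (SD, n = 2 each). Its log2 change was 0.31 (SE 0.0486; 95% interval 0.18 to 0.43; limma, adjusted p = 0.0341). The ratio of Hspa5 to Hsp90b1 was between 0.939 and 0.955 in all 4 libraries.

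Calr was at 225 and 244 TPM with vehicle and at 291 and 294 TPM with Mdivi-1, means of 234 ± 13.5 and 292 ± 2.17 TPM (SD, n = 2 each). The vehicle libraries differed by more than the Mdivi-1 libraries, without overlap between the arms, and the log2 change was 0.32 (SE 0.0598; 95% interval 0.16 to 0.47; limma, adjusted p = 0.0483). Its partner lectin Canx was at 118 and 129.8 TPM with vehicle and at 146 and 129 TPM with Mdivi-1, so that one Mdivi-1 library lay inside the vehicle range (log2 change 0.15, 95% interval -0.07 to 0.37, adjusted p = 0.342 in limma). Pdia3 was at 195 and 201 TPM with vehicle and at 214 and 219.6 TPM with Mdivi-1, a log2 change of 0.13 (adjusted p = 0.185 in limma). Neither partner of Calr in the glycoprotein cycle passed the test, and whether their changes differ from that of Calr was not tested.

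Pdia6 was at 68.3 and 71.0 TPM with vehicle and at 86.8 and 79.9 TPM with Mdivi-1, a log2 change of 0.26 that came next in size (95% interval 0.08 to 0.43; limma, adjusted p = 0.0972). Pdia4 was at 24.2 and 24.8 TPM with vehicle and at 26.1 and 30.4 TPM with Mdivi-1, with a wider spread between its Mdivi-1 libraries (log2 change 0.19; limma, adjusted p = 0.267). Dnajb9 was at 28.9 and 27.6 TPM with vehicle and at 32.1 and 31.9 TPM with Mdivi-1, a log2 change of 0.17 (adjusted p = 0.185 in limma). These 3 genes did not overlap between the arms and did not pass. Sdf2l1 was at 36.1 and 32.9 TPM with vehicle and at 35.0 and 37.0 TPM with Mdivi-1, with overlap (log2 change 0.06, 95% interval -0.14 to 0.26; limma, adjusted p = 0.674). Xbp1 was at 144 and 145 TPM with vehicle and at 160.3 and 156 TPM with Mdivi-1, without overlap (log2 change 0.13, 95% interval 0.00055 to 0.26; limma, adjusted p = 0.193). Hspa5 over Xbp1 was 1.56 and 1.55 with vehicle and 1.71 and 1.82 with Mdivi-1.

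**Figure D3:**
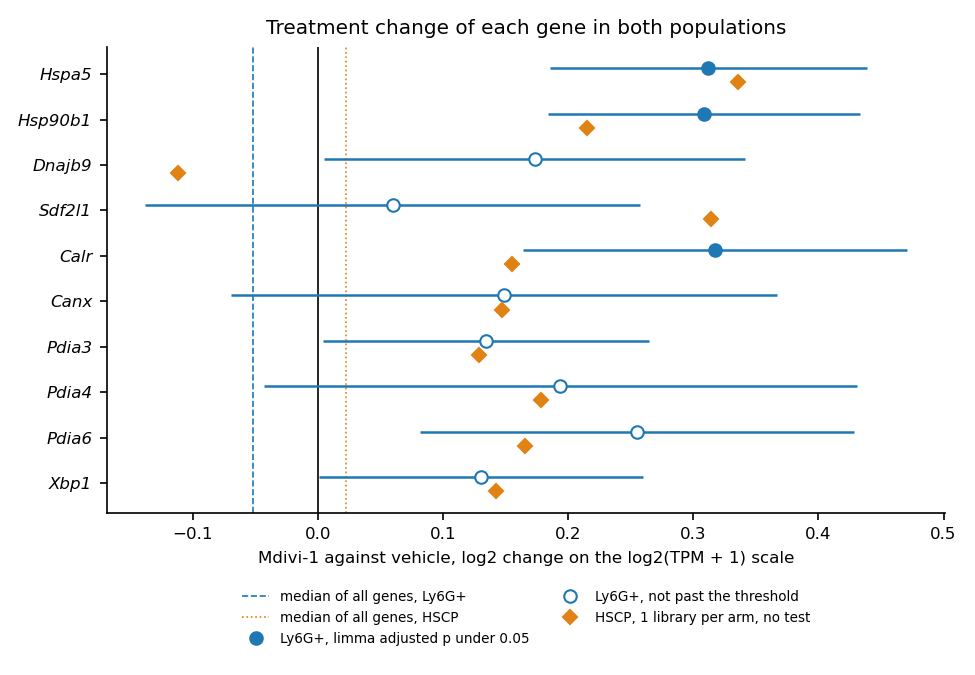
Log2 difference between Mdivi-1 and vehicle for each of the 10 genes in Ly6G+ cells, with 95% intervals from limma, and in HSCPs, where each arm is 1 library and no interval can be given; filled circles passed the threshold, and dashed and dotted lines mark the medians of all genes (-0.05 and 0.02). All 10 Ly6G+ values lie above 0, the highest being Calr at 0.32, and in HSCPs 9 of 10 lie above 0, with Dnajb9 at -0.11.

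The 3 calls sit close to the threshold. They were lost with no filter on low values (adjusted p = 0.109 for Calr, 0.0784 for Hspa5 and 0.0762 for Hsp90b1 in limma), with a constant prior (0.124, 0.105 and 0.105), for Calr with a pseudocount of 0.1 TPM (0.0501), and when any 1 of the 4 libraries was left out, with log2 changes of 0.26 to 0.38, 0.29 to 0.34 and 0.29 to 0.33 and adjusted p of 0.119 to 0.176, 0.0866 to 0.175 and 0.0896 to 0.169. Leaving out a library leaves 1 residual degree of freedom, with the lone library of an arm assumed to vary like the other arm. On the median-of-ratios scale, where 49.1% of calls were higher rather than 36.8% and 3.17% of genes were called higher, the changes were 0.37, 0.37 and 0.36 for Calr, Hspa5 and Hsp90b1, and on the upper-quartile scale Pdia6 also passed, at 0.31 (limma, adjusted p = 0.0495), where 3.22% of genes were called higher.

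Marker lists of other marrow cells moved between the arms of this comparison. Plasma cells are rich in endoplasmic reticulum, and the 9 genes of their list in the table (of 10) summed to 781 and 797 TPM with vehicle and to 1627 and 1500 TPM with Mdivi-1. Most of that sum was the light chain Igkc, at 677 and 695 TPM with vehicle and 1524 and 1397 TPM with Mdivi-1, and Jchain was at 17.5 and 17.3 against 32.0 and 40.0 TPM. The defining genes Tnfrsf17, at 0 in all 4 Ly6G+ libraries, Derl3, under 1 TPM in every library, and Sdc1, between 0.752 and 1.07 TPM, were at or near 0, Irf4 was at 0.939 and 0.931 TPM with Mdivi-1 against 2.66 and 2.61 TPM with vehicle, Prdm1 at 0.881 and 0.754 against 1.59 and 1.37 TPM, Ighm at 67.3 and 58.6 against 72.7 and 72.0 TPM, and Mzb1 at 0.958 and 1.85 TPM against 7.81 and 7.16 TPM. Without Igkc the other 8 genes summed to 104 and 102 TPM with vehicle and to 103 and 103 TPM with Mdivi-1. Sums with vehicle and with Mdivi-1 were 115 and 116 against 21.1 and 20.8 TPM for 8 B cell markers, 251 and 248 against 115 and 99.3 TPM for 6 megakaryocyte markers, 496 and 504 against 166 and 175 TPM for 6 mast cell and basophil markers, 597 and 630.2 against 341 and 331 TPM for 7 dendritic cell markers, and 67.3 and 74.0 against 64.7 and 65.1 TPM for 6 eosinophil markers, of which Il5ra was under 1 TPM in every library. The sums of 8 neutrophil markers (255351 to 264205 against 253153 to 263458 TPM) and of 8 progenitor markers (1886 to 1982 against 1981 to 2000 TPM) overlapped between the arms. Most of the neutrophil sum was S100a8 and S100a9, and other markers of that list moved in opposite directions. Camp was at 13601 and 15008 TPM with vehicle and 9442 and 8723 TPM with Mdivi-1. Ltf was at 7137 and 7394.5 against 5049 and 5206 TPM. Ngp and Ly6g were also lower with Mdivi-1. Retnlg was at 22645 and 22901.5 against 32487 and 32586 TPM, and Mmp8 at 1257 and 1254 against 1576 and 1520 TPM. Markers of the progenitor list moved in opposite directions too. Cd34 was at 63.2 and 60.2 TPM with vehicle and 46.6 and 47.6 TPM with Mdivi-1, and Kit and Myb were lower as well. Ctsg was at 237 and 265 against 298 and 327 TPM, and Mpo was higher as well. Elane, Prtn3 and Flt3 overlapped between the arms. The part of any of these cell types in the chaperone changes was not tested.

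HSCPs gave 1 library per arm, so the ratios that follow have no replicate check and no p-value. Hspa5 was at 446 TPM with vehicle and 564 TPM with Mdivi-1, a log2 ratio of 0.34, and Sdf2l1 was at 126 and 157 TPM, a ratio of 0.31. Hsp90b1 (0.21), Pdia4 (0.18), Pdia6 (0.17), Calr (0.16), Canx (0.15), Xbp1 (0.14) and Pdia3 (0.13) followed. Only Dnajb9, at 26.6 TPM with vehicle and 24.5 TPM with Mdivi-1, had a lower value with the drug, a log2 ratio of -0.11. So 9 of 10 members were higher by some amount, as were 54.5% of the 11881 genes compared, and the members' median was 0.16 against 0.02 for all genes. No member reached a log2 ratio of 0.5 in size, which 8.76% of genes did. The same marker lists differed here as well: plasma cell markers summed to 239.7 and 369.9 TPM (92.2 and 79.3 TPM without Igkc), megakaryocyte markers to 318 and 158 TPM, eosinophil markers to 679 and 379.7 TPM and dendritic cell markers to 1136.5 and 714 TPM with vehicle and Mdivi-1. Neutrophil markers summed to 95388 and 86278 TPM, and progenitor markers to 14520 and 15513 TPM, in the same order. B cell markers summed to 72.2 and 47.0 TPM, and mast cell and basophil markers to 265 and 197 TPM. The part of any of these lists in the HSCP ratios was not tested.

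Whether the Mdivi-1 effect differed between Ly6G+ cells and HSCPs was tested as an interaction over the 6 libraries, with each lone HSCP library assumed to vary like the Ly6G+ libraries. None of the 10 members passed in limma, and none was at an unadjusted p under 0.05; of 12338 genes 0 passed (0.00%), with 1398 at an unadjusted p under 0.05. The largest positive difference among the members was for Dnajb9, which was higher with Mdivi-1 in Ly6G+ libraries and lower in the HSCP library (0.29, 95% interval -0.01 to 0.58; adjusted p = 0.456). The largest negative one was for Sdf2l1, at -0.25 (95% interval -0.59 to 0.08; limma, adjusted p = 0.521). For the genes called in Ly6G+ cells the differences were 0.16 for Calr (95% interval -0.10 to 0.43), -0.02 for Hspa5 (-0.24 to 0.20) and 0.09 for Hsp90b1 (-0.12 to 0.31). The interval for Calr holds a difference as large as its whole Ly6G+ change of 0.32, that for Hsp90b1 ends at about its change of 0.31, and that for Hspa5 ends below its change of 0.31.

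Other genes of the compartment were read from 5 lists with 88 genes in all. Of all 11775 genes tested for Mdivi-1 in Ly6G+ cells, 1014 were higher and 2012 lower at an unadjusted p under 0.05. Co-chaperones and folding partners, with 23 of 24 genes tested (Kdelr3 was under the filter), had 0 genes called in either direction with Mdivi-1 in Ly6G+ cells by limma (5 higher and 1 lower at an unadjusted p under 0.05) and a median log2 change of 0.09. P4hb, the founding disulfide isomerase, was at 217 ± 3.51 TPM with vehicle and 236 ± 2.08 TPM with Mdivi-1 (SD, n = 2 each), a log2 change of 0.12 (limma, adjusted p = 0.215), Erp29 had a change of 0.18 (adjusted p = 0.187) and the prolyl isomerase Ppib one of 0.02 (adjusted p = 0.883). The 26 genes of the translocon and of glycosylation had 0 calls (1 higher and 2 lower unadjusted) and a median of 0.06. Its most abundant members were the translocon subunit Sec61b (-0.20; limma, adjusted p = 0.121), the signal peptidase subunit Sec11c (0.16; 0.173) and the translocon-associated Ssr4 (0.14; 0.324). Hyou1, an exchange factor for Hspa5, was at 26.9 and 26.5 TPM with vehicle and 34.2 and 32.3 TPM with Mdivi-1, a log2 change of 0.31 (adjusted p = 0.0666 in limma). It passed on the median-of-ratios scale (0.36; adjusted p = 0.0447) and on the upper-quartile scale (0.37; 0.0431), the latter together with the oxidoreductase Erp44 (0.33; 0.0493); both are named here after their values were seen. No translocon or glycosylation gene passed on either scale.

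Among 19 tested of 20 genes (Derl3 was under the filter) of endoplasmic-reticulum-associated degradation, which returns misfolded protein to the proteasome, 0 rose and 1 fell with Mdivi-1 in Ly6G+ cells (3 higher and 2 lower at an unadjusted p under 0.05), with a median of -0.02; a single call in 19 is near the 4.24% of all genes called lower. The one that fell was the ubiquitin-conjugating enzyme Ube2g2, at 34.1 and 33.4 TPM with vehicle and 25.2 and 26.3 TPM with Mdivi-1, a log2 change of -0.38 (adjusted p = 0.0422 in limma). The call was lost on the median-of-ratios scale (-0.33; adjusted p = 0.0617) and without any 1 of the 4 libraries (-0.41 to -0.35; 0.119 to 0.177). The segregase Vcp did not pass (-0.04; limma, adjusted p = 0.693), and its value was 0.016 on the median-of-ratios scale. None of the 8 sensors and their proteases and relatives passed (0 higher and 1 lower unadjusted; median -0.09). Among them the sensor kinase Eif2ak3 (PERK) had a log2 change of 0.08 (limma, adjusted p = 0.507), the protease Mbtps1 one of -0.19 (0.203) and the membrane-bound factor Creb3 one of 0.21 (0.267). Ern1, which encodes the kinase and nuclease that splices Xbp1, is named here after its values were seen: it was at 16.6 and 16.7 TPM with vehicle and 13.3 and 12.5 TPM with Mdivi-1, a log2 change of -0.34 (adjusted p = 0.075 in limma).

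Of the 10 genes of the PERK arm, which slows translation and works through the transcription factor Atf4, 1 rose and 0 fell (3 higher and 3 lower unadjusted; median 0.0014), where 2.46% of all genes were called higher and 4.24% lower. Ddit4, an inhibitor of mTOR signalling that many stresses induce, rose from 5.70 and 6.22 TPM to 11.7 and 11.0 TPM (log2 change 0.83; limma, adjusted p = 0.0195), and was at 8.32 TPM in vehicle and 18.5 TPM in Mdivi-1 HSCPs. Its call was lost with no filter on low values (adjusted p = 0.0562) and without any 1 of the 4 libraries (0.78 to 0.88; adjusted p 0.0744 to 0.117). Atf4 itself had a log2 change of -0.39 (limma, adjusted p = 0.064) and Cebpb one of 0.47 (0.105), neither past the threshold, though Atf4 passed with a minimum of 5 TPM (adjusted p = 0.0464) and after rescaling without S100a8 and S100a9 (0.0495). The amino acid synthase gene Asns, and Trib3 and Chac1 of the same list, are named here after their values were seen. Asns was at 5.34 and 5.52 TPM with vehicle and 8.41 and 10.6 TPM with Mdivi-1 in Ly6G+ cells (log2 change 0.70, limma adjusted p = 0.0511). It passed with median-of-ratios (0.0492) and upper-quartile scaling (0.0491) and with a minimum of 5 TPM (0.0372). Trib3 (-0.56, limma adjusted p = 0.0984) and Chac1 (-0.45, limma adjusted p = 0.115) had lower values with Mdivi-1 and did not pass. Log2 changes were above 0 for 5 of the 10 genes and below 0 for the other 5. In HSCPs, with 1 library per arm and no test, Asns was at 8.32 TPM with vehicle and 20.3 TPM with Mdivi-1. Asns and Ddit4 were the members of this list past a log2 ratio of 0.5, at 1.19 and 1.06. Of the 11881 genes compared in HSCPs, 8.76% reached that size in either direction. Median HSCP ratios of the 5 lists lay between 0.05 for degradation and 0.13 for sensors.

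**Figure D4:**
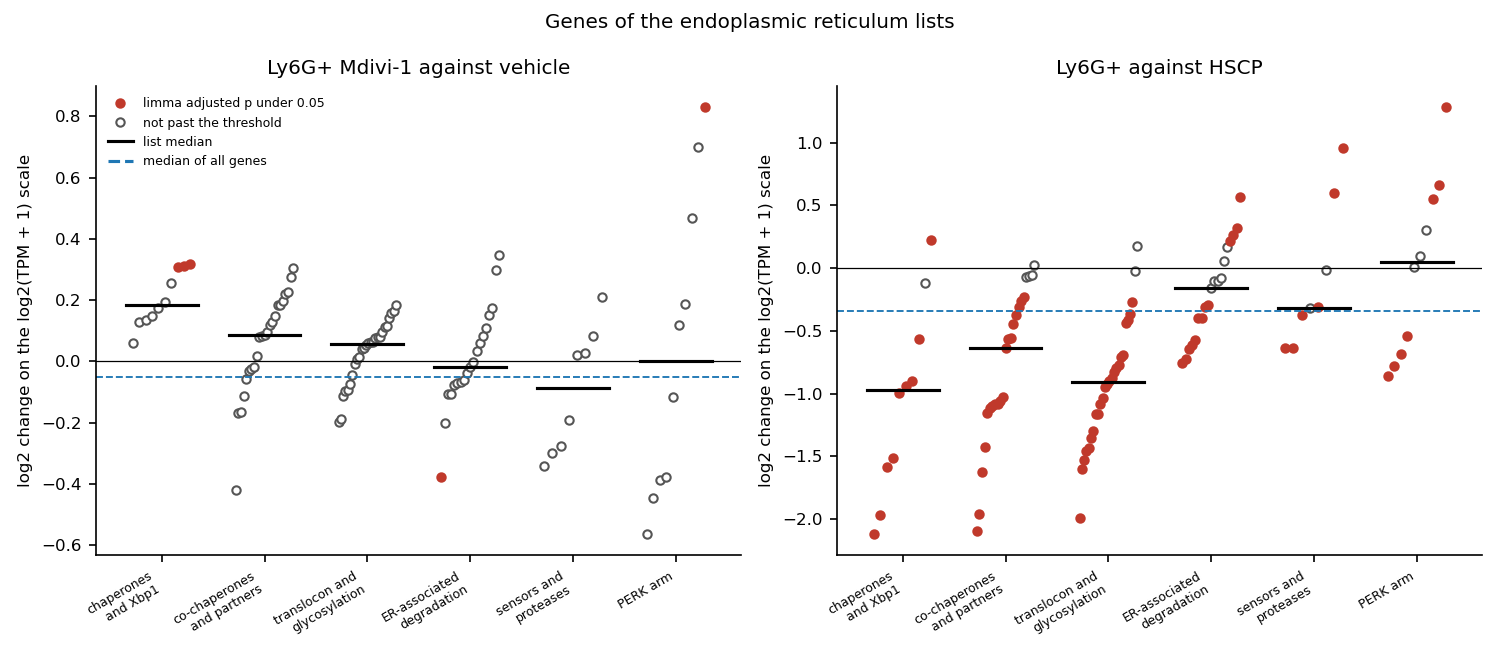
Log2 difference on the log2(TPM + 1) scale for each tested gene of the 10 members and the 5 other lists, 1 point per gene (filled in red where limma's adjusted p passed), with Mdivi-1 against vehicle in Ly6G+ cells on the left and Ly6G+ against HSCP on the right; black bars are list medians and the dashed line is the median of all genes. On the left the members' median is 0.18 and those of the other lists lie between -0.09 and 0.09, and on the right the medians run from -0.97 for the members to 0.05 for the PERK arm.

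Between the populations, the same lists were read against the shares over all genes, 50.3% lower and 22.2% higher on the TPM scale. Of 23 co-chaperones and partners, 19 were lower in Ly6G+ cells and 0 higher (median -0.64), led by the isomerase Pdia5 (10.4 and 12.5 TPM in HSCPs, 1.72 to 2.25 TPM in Ly6G+ cells; log2 -2.09), the prolyl isomerase Fkbp11 (-1.96) and the Hspa5 exchange factor Sil1 (-1.62). Of 26 translocon and glycosylation genes, 24 were lower and 0 higher (median -0.91), led by the glucosidase Mogs (112 and 129.9 TPM against 28.3 to 31.8 TPM; -1.99), Ssr4 (-1.60) and Ssr2 (-1.53). Of 19 degradation genes, 9 were lower, led by Selenos (-0.76), Edem2 (-0.73) and Ube2g2 (-0.64), and 4 were higher, with a median of -0.16; the degradation counts lie near the shares over all genes. All named differences passed in limma. On the median-of-ratios scale the counts were 13 lower and 4 higher for co-chaperones (median -0.27), 20 and 2 for the translocon and glycosylation (-0.54) and 5 and 8 for degradation (0.20), beside 34.3% lower and 33.6% higher over all genes, so the degradation list's median changed sign with the scaling.

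Of the 8 sensors and relatives, 4 were lower in Ly6G+ cells, with Mbtps1 at -0.64 and Creb3l2 at -0.64 named by size, and 2 were higher, Creb3 (13.7 and 15.3 TPM in HSCPs, 24.6 to 31.4 TPM in Ly6G+ cells; log2 0.96; limma, adjusted p = 0.000134) and Eif2ak3 (0.60, named after its value was seen). Creb3l2 (limma, adjusted p = 0.02) did not pass on the median-of-ratios scale (-0.34; adjusted p = 0.136) or without the Mdivi-1 HSCP library (-0.39; 0.22). In the PERK arm, Atf4 (-0.86; limma, adjusted p = 0.000576) and Asns (-0.78; 0.00316) were among 4 lower genes, and Sesn2 (1.28; 0.000159) led 3 higher ones. The counts of both lists lie near the shares over all genes, 50.3% lower and 22.2% higher. On the median-of-ratios scale, where 34.3% of all genes were lower and 33.6% higher, 1 sensor was lower and 3 were higher. On that scale 2 PERK-arm genes were lower and 4 higher. Medians were -0.32 and 0.05 on the TPM scale and 0.01 and 0.37 after median-of-ratios scaling.

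The members differed among themselves in pattern over the 6 libraries. Each gene's log2(TPM + 1) was centred on its own mean and set against the mean of the 9 chaperones, and likeness was measured as the root mean square difference, over 6 libraries that share 2 populations and 2 treatments. Hspa5 was closest to that mean, at 0.0963, followed by Canx (0.120), Pdia3 (0.124), Pdia4 (0.179), Pdia6 (0.208) and Hsp90b1 (0.279). Sdf2l1 (0.394) and Calr (0.459) had the larger population differences, and Xbp1 (0.489) and Dnajb9 (0.655) were farthest. This measure counts the size of a change as well as its shape. The correlation with the chaperone mean was 0.990 for Sdf2l1 and 0.998 for Calr, against 0.751 for Xbp1 and -0.728 for Dnajb9. That mean includes each chaperone itself but not Xbp1. Among all genes with a mean of at least 10 TPM, Hspa5 ranked 128 in likeness and Calr 3815. Among 7615 genes with a mean of at least 10 TPM, the 5 closest to the chaperone mean were Rabggtb (0.0346), Cenph (0.0406), Ppid (0.0409), P4hb (0.0435) and Tcp1 (0.0445). Only P4hb of these belongs to the lists of endoplasmic reticulum genes. Rabggtb encodes a subunit of a prenyltransferase, Cenph a kinetochore protein, Ppid a cytosolic cyclophilin and Tcp1 a subunit of the cytosolic chaperonin.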

How the data were processed

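RNA from 6 bone marrow samples was sequenced. The submitters' processing notes name bcl2fastq, CASAVA 1.8, kallisto and the build mm10, without further settings. The deposited table holds 1 value per gene and library; its values are not whole and sum to between 963243 and 979168 per library, and they are taken here as TPM per gene, as the authors deposited them. Sequencing depth, and with it counting error, is unknown.

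Values were tested as log2(TPM + 1) with limma 3.58.1 in R 4.3.3, with a trended, robust prior and Benjamini-Hochberg adjustment over all genes with at least 1 TPM in 2 of the libraries compared, and a threshold of 0.05. Residual degrees of freedom were 2 for Mdivi-1 in Ly6G+ cells and for the interaction, and 3 between populations. The comparisons share libraries. The 10 genes, the lists and the tests were chosen with earlier results of these data known. From each of 5 lists, up to 3 genes per test were named, those past the threshold with the largest change and then those with the highest mean TPM; 5 genes were named by likeness to the chaperones. A gene that the rule names is not reported here. Other pseudocounts, filters, scalings, priors, a replicate block and leaving out each library were tried. Gene positions and shared 31-base words are from GENCODE M21. Promoter windows are from RefSeq on GRCm38.p6, and all 10 members matched by symbol. The fits were tested on simulated data.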

Additional observations from a re-analysis of the deposited data

How the results depend on the processing

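In Ly6G+ cells 789 genes were called for Mdivi-1; no filter on low values gave 218, a constant prior 346 and leaving out each library 22 to 279, while the members called higher numbered 0 in each of these in place of 3; more genes are tested with no filter (19240 against 11775) and fewer libraries when one is left out, and the cause was not otherwise tested. Same-numbered Ly6G+ libraries did not deviate together (r = -0.03 over 11775 genes), and no label ties a number across the arms. With 2 libraries per arm, that value cannot show whether they share a mouse or a batch. With the number as a replicate block 325 genes and 0 members were called (adjusted p = 0.0899 for Calr, 0.0876 for Hspa5 and 0.0864 for Hsp90b1 in limma). No paired analysis was possible between populations because HSCPs have 1 library per arm. Leaving out each library gave -0.0058 to 0.13 for Sdf2l1 and -0.033 to 0.068 for Ppib; Vcp was 0.016 and 0.023 after median-of-ratios and upper-quartile scaling.

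Between populations, members called higher numbered 0 with no filter and with a constant prior, 2 with median-of-ratios and with upper-quartile scaling, and 0 to 1 when each library was left out. Xbp1 was 0.26, 0.20 and 0.080 after median-of-ratios scaling, upper-quartile scaling and rescaling without S100a8 and S100a9. The 8 lower members stayed lower and past the threshold in every alternative run. For the interaction, 1 gene was called with a pseudocount of 0.1, 6 with a pseudocount of 5, 6 with a minimum of 5 TPM and 0 to 2 when each Ly6G+ library was left out, and no member in any. Its sign was not fixed for members near 0: Hspa5 was 0.081 and 0.065, and Xbp1 0.092 and 0.077, with median-of-ratios and upper-quartile scaling, Xbp1 0.0039 without S100a8 and S100a9, and Canx -0.0010 and Pdia4 -0.00040 with a pseudocount of 5. Leaving out each Ly6G+ library gave -0.086 to 0.088 for Canx, -0.048 to 0.00036 for Hspa5, -0.017 to 0.028 for Pdia3, -0.089 to 0.12 for Pdia4 and -0.031 to 0.0070 for Xbp1. With depth unknown, the precision of a single library's value cannot be given.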
